A study of Mus musculus with 9 samples.

Results

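Neural stem cells (NSCs) from the adult mouse subventricular zone were kept proliferating in bFGF and EGF, and EGF was then replaced by BMP4 while bFGF stayed in the medium. The members of the comparison were the 3 bFGF/BMP4-treated libraries, collected at day 6, and the 3 bFGF/EGF-treated libraries, collected at day 0, of 9 RNA-seq libraries in all. They were described across 20207 of the 55704 genes in the deposited table, namely those with a mean of at least 0.1 FPKM (fragments per kilobase of gene, scaled to the depth of the library) over the 9 libraries. The cells came from wild-type C57BL/6 mice of 8 to 9 weeks, with 2 female and 2 male mice pooled in 1 isolation. After at least 3 passages they were plated on poly-L-ornithine and laminin in proliferation medium, and after 16 to 18 h the medium of the BMP4 groups was changed. bFGF, EGF and BMP4 were each used at 20 ng/ml. The remaining 3 libraries were BMP4-treated NSCs at day 6, without bFGF, and their levels are given only beside those of the comparison. Proliferation medium held B27 without vitamin A, whereas the day 6 media were described as holding B27, so the 2 groups differed in time in culture and possibly in this supplement as well as in growth factors, and these cannot be told apart.

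BMP4 binds type I and type II serine/threonine kinase receptors, which phosphorylate SMAD proteins that enter the nucleus and switch on the Id genes and a set of inhibitors of the same pathway. EGF and bFGF act through receptor tyrosine kinases that feed the RAS/ERK cascade, whose own targets include ETS factors and the Sprouty and DUSP feedback inhibitors. In adult NSCs, EGF and bFGF are mitogens, and BMP signalling is known for holding the cells in quiescence and, in other settings, for astrocyte differentiation.

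The 6 libraries held 15892854 to 17009812 fragments on genes. Pearson correlations of log2(FPKM + 0.1) were 0.954 to 0.964 within groups and 0.855 to 0.869 between them. In chi-square tests of fragments, bFGF/BMP4 replicate 1 differed more from replicates 2 and 3 (19.56 and 22.7 per degree of freedom) than these did from each other (7.59), and the values within bFGF/EGF were 20.21 to 39.29. Nothing in the labels said that the libraries came from separate cultures, so p-values measured only the spread between these libraries, which may be technical. At an adjusted p of at most 0.05 (limma) and at least a 2-fold change, 3327 genes (16.5%) were higher and 2847 (14.1%) were lower in bFGF/BMP4-treated NSCs, and without bFGF/BMP4 replicate 1 these were 3142 and 2685. By adjusted p alone, 5058 genes (25.0%) were higher and 4761 (23.6%) were lower. The median log2 fold change over all genes tested was 0.06. Groups without overlap were common: every bFGF/BMP4 library lay above every bFGF/EGF library for 6098 of the 20207 genes, and below for 5560. A gene is called higher or lower below when it passed both thresholds, and values are FPKM per library or the mean ± SD of 3 libraries. The counts of every list are to be read against these shares of all genes, 16.5% higher and 14.1% lower.

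**Figure D1:**
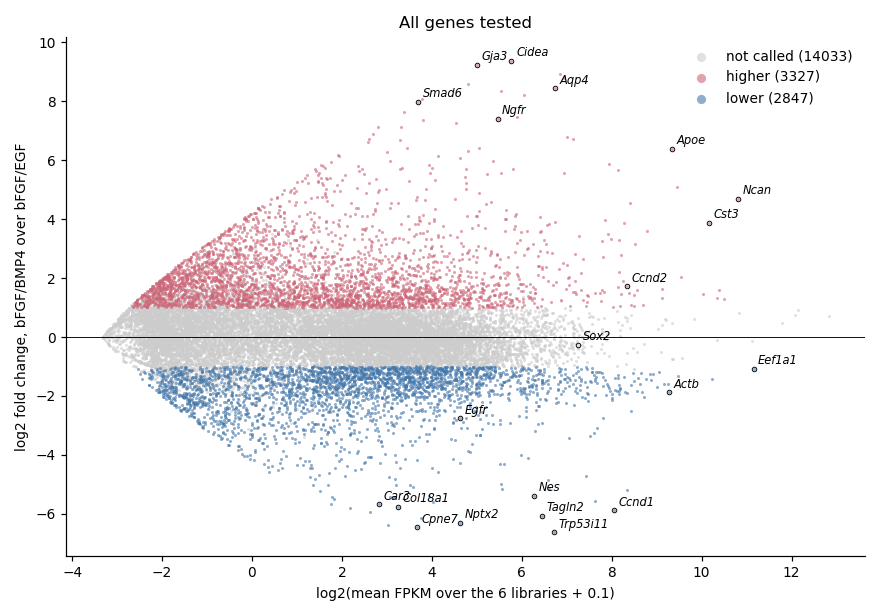
Each point is 1 of 20207 genes, with log2(mean FPKM over the 6 libraries + 0.1) on the x axis and the log2 fold change of bFGF/BMP4 over bFGF/EGF on the y axis. Red points are the 3327 genes called higher and blue points the 2847 called lower, and changes reach a log2 of 9.37 upward (Cidea) and -6.62 downward (Trp53i11).

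Targets of BMP signalling rose together. All 14 BMP/SMAD targets in the list were higher, with a median log2 fold change of 3.18 (3.61 with undetected genes set at their bound), beside 16.5% higher and a median of 0.06 over all genes. Noggin (Nog, ENSMUSG00000048616, GRCm39 chromosome 11: 89191464 to 89193158), a secreted protein that binds and blocks BMPs, stood at 0.347, 0.522 and 0.434 FPKM in the bFGF/EGF libraries and at 146, 293 and 300 in the bFGF/BMP4 libraries. The groups were far apart, and the log2 fold change was 8.79 ± 0.26 (SE, adjusted p = 2.1e-08). Smad6, an inhibitory SMAD, had no fragment in any bFGF/EGF library and 18.6, 33.2 and 25.3 FPKM with bFGF/BMP4, which is at least 461-fold higher. In bulk RNA such a difference may be more cells with the transcript or more transcript per cell, and the 2 cannot be told apart.

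The Id genes code for helix-loop-helix proteins that hold back differentiation factors, and their starting levels differed. Id4 stood at 0.978, 0.756 and 1.07 FPKM with bFGF/EGF and at 53.4, 59.7 and 46.3 with bFGF/BMP4, a log2 fold change of 5.69 ± 0.15 (adjusted p = 1.2e-08). Id1 already stood at 17.1, 28.3 and 17.5 FPKM with bFGF/EGF and reached 186, 137 and 105, a log2 fold change of 2.76 ± 0.28 (adjusted p = 3.1e-05). Every bFGF/BMP4 library exceeded every bFGF/EGF library for both genes. Id2 rose by a log2 of 2.50 and Id3 by 1.73. Among the other targets, the inhibitory Smad7 rose by 4.54, the receptor SMAD gene Smad9 by 4.55, the helix-loop-helix factor Atoh8 by 5.24, Hey1 by 2.78 and the homeobox gene Msx1 by 2.24. Msx2 was not detected with bFGF/EGF and was at least 21.7-fold higher. The smallest rise was that of Bambi, a pseudoreceptor that dampens the pathway, at 1.26 ± 0.33 against 2.89 ± 0.91 FPKM (log2 1.12, adjusted p = 0.018). The Bambi call was lost when bFGF/EGF replicate 1, bFGF/BMP4 replicate 2 or bFGF/BMP4 replicate 3 was left out, with log2 values of 0.91 to 1.40 over all libraries left out in turn.

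The promoter of Id4 is shown because it holds a GC-rich element of a kind that BMP-activated SMADs are known to bind. Of the 14 members, 9 had an entry in the RefSeq promoter table (GRCm38.p6, 250 bases before to 50 after the start). GGCGCC, the GC-rich SMAD element searched on both strands, was in 4 of these 9 promoters (44.4%) and in 11.9% of all 32851 promoters. A match of letters is not evidence of binding. The 250 bases before the Id4 start, on the plus strand at chr13:48260866-48261115, are shown with the GGCGCC match, which lies 142 bases before the start, in capitals.
Id4: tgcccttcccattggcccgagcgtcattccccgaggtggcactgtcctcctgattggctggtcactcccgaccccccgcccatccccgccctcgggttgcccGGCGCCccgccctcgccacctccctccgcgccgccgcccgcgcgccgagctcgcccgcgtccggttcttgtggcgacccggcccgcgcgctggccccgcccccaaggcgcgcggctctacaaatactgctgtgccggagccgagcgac

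Ligands, receptors and extracellular modulators of the pathway moved less uniformly. Of 28 tested, 7 were higher and 3 lower, the latter near the share over all genes. The median was 0.16, or -0.0 with undetected genes at their bound. The type I receptor Bmpr1a rose from 26.1, 17.3 and 26.3 FPKM to 86.7, 104 and 99.6 (log2 2.08 ± 0.16, adjusted p = 6.1e-06), with no overlap of the groups. The type II receptor Bmpr2 rose by a log2 of 1.49, and Fstl1, a secreted BMP-binding protein, by 3.09. Bmp7, the most abundant BMP ligand measured in proliferating cells, went the other way, from 24.1, 23.5 and 25.5 FPKM to 4.01, 3.42 and 5.21 (log2 -2.52 ± 0.24, adjusted p = 2.2e-05). The SMADs that carry the signal, chosen after their values were seen, were not called: Smad1 was at 9.05 against 7.98 FPKM, Smad5 at 30.9 against 19.4, and the shared partner Smad4 at 29.1 against 24.7. Smad5 passed by adjusted p alone (log2 -0.67, adjusted p = 0.00094), whereas Smad1 (adjusted p = 0.27) and Smad4 (adjusted p = 0.16) did not.

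The receptor of the factor that was removed fell. Egfr, the EGF receptor (ENSMUSG00000020122, GRCm39 chromosome 11: 16702198 to 16868158), stood at 44.9, 41.2 and 42.1 FPKM in bFGF/EGF-treated NSCs and at 7.31, 5.62 and 6.03 in bFGF/BMP4-treated NSCs. The groups did not overlap, and Egfr was 6.76-fold lower by the means (log2 -2.75 ± 0.16, adjusted p = 8.9e-07). The EGFR ligand Areg fell from 1.78 ± 0.22 to 0.237 ± 0.18 FPKM, while the ligands Tgfa (log2 0.06, adjusted p = 0.88) and Hbegf (log2 0.54, adjusted p = 0.19) overlapped between groups. Some genes whose products restrain EGF receptors rose. Lrig1, a transmembrane protein that promotes receptor turnover and marks quiescent NSCs, went from 68.8, 81.3 and 68.1 FPKM to 187, 216 and 224 (log2 1.52 ± 0.14, adjusted p = 1.5e-05). With BMP4 alone Lrig1 was at 75.1 ± 9.4, lower than with bFGF/BMP4 (log2 -1.48, adjusted p = 5.8e-05). Lrig3 rose by 2.26, while Lrig2 was not called, at 2.33 against 2.70 FPKM (log2 0.20, adjusted p = 0.38). The intracellular EGFR inhibitor gene Errfi1 rose by 1.10, a call that was lost without bFGF/EGF replicate 3 (0.95). Erbb2, a co-receptor with no ligand of its own, rose from 1.06 to 3.03 FPKM. The list held EGF receptor family genes, their ligands, and the Lrig genes and Errfi1. Of its 15 genes tested, 5 were higher (Erbb2, Nrg2, Lrig1, Lrig3 and Errfi1), 2 lower (Egfr and Areg) and 8 not called, with a median of 0.56. The lower share was near that over all genes.

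On the side of the factor that stayed, a list of FGF receptor genes, FGF family genes and the adaptor genes Frs2 and Frs3 was described. Of 15 tested, 6 were higher, Fgf11 among them, and 2 lower, Fgf14 and Fgf18, the lower share being near that over all genes. The median was 0.79, or 0.97 with undetected genes at their bound. Fgf1, a ligand without a secretion signal that binds all FGF receptors, was the most abundant ligand of the list after the switch, at 14.1, 12.5 and 20.3 FPKM before and 110, 121 and 141 after (log2 3.00 ± 0.19, adjusted p = 1.2e-06). Fgfr2 rose by 2.70 and the kinase-less receptor Fgfrl1 by 2.41, in both cases with every bFGF/BMP4 library above every bFGF/EGF library.

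Some FGF/ERK targets had no called change, a second set fell, and Epha4 rose. Etv4, an ETS factor that FGF signalling induces, stood at 37, 41.2 and 32.4 FPKM with bFGF/EGF and at 36, 35.2 and 37 with bFGF/BMP4. The groups overlapped and no change was found (log2 -0.03 ± 0.25, adjusted p = 0.95). In BMP4-treated NSCs, which had no bFGF, Etv4 was at 0.357, 0.656 and 0.957 FPKM, far below bFGF/BMP4 (log2 -5.66 ± 0.25, adjusted p = 1.3e-06). Etv5, its close relative, was at 210, 244 and 165 against 165, 154 and 175 FPKM (log2 -0.31, adjusted p = 0.35) and at 9.67 ± 4.1 with BMP4 alone. The ERK phosphatase gene Dusp6 was at 127, 148 and 73.5 against 39.2, 95.5 and 120 FPKM (log2 -0.54, adjusted p = 0.32), and at 2.63 ± 0.84 with BMP4 alone. For these genes the bFGF/EGF and bFGF/BMP4 values overlapped, and the BMP4 values lay below all of them. The feedback inhibitors Spry1 (log2 0.61, adjusted p = 0.21), Spry2 (-0.27, adjusted p = 0.25) and Spred1 (-0.08, adjusted p = 0.65) were likewise not called, and each was lower with BMP4 alone than with bFGF/BMP4 (adjusted p of 2.2e-05, 0.00011 and 7.2e-05).

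Other ERK targets fell although bFGF was present. Myc, which drives growth and ribosome production, went from 62, 69.1 and 41.2 FPKM to 3.64, 5.28 and 8.66 (log2 -3.33 ± 0.29, adjusted p = 1.2e-05), and was at 5.29 ± 0.68 with BMP4 alone. Ier3 fell by 3.35, Phlda1 by 2.34, Dusp5 by 2.06, Spry4 by 1.61 and Dusp4 by 1.31 on the log2 scale. Epha4, an ephrin receptor, rose by 2.83. Over the list, 8 of 19 were lower, 1 was higher and 10 were not called, with a median of -0.54. Immediate early genes, which respond to growth factors within minutes, followed the second set: 14 of 24 were lower and 1 higher (median -1.38). The activity-regulated gene Arc fell from 22.9, 19.2 and 6.66 FPKM to 0.183, 0.235 and 0.311 (log2 -5.41 ± 0.42, adjusted p = 5.5e-06), and the zinc finger gene Egr1 from 43.9, 54.2 and 27.2 to 1.1, 2.49 and 3.74 (log2 -4.14 ± 0.40, adjusted p = 2.2e-05). Egr3 was at least 62.4-fold lower. Dusp1, the phosphatase gene that rose, went from 7.93 ± 1.2 to 26.5 ± 6.8 FPKM, and it shares 38 exon bases with Ergic1 on the other strand. Fos, chosen after its values were seen, was at 6.60 against 6.47 FPKM.

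**Figure D2:**
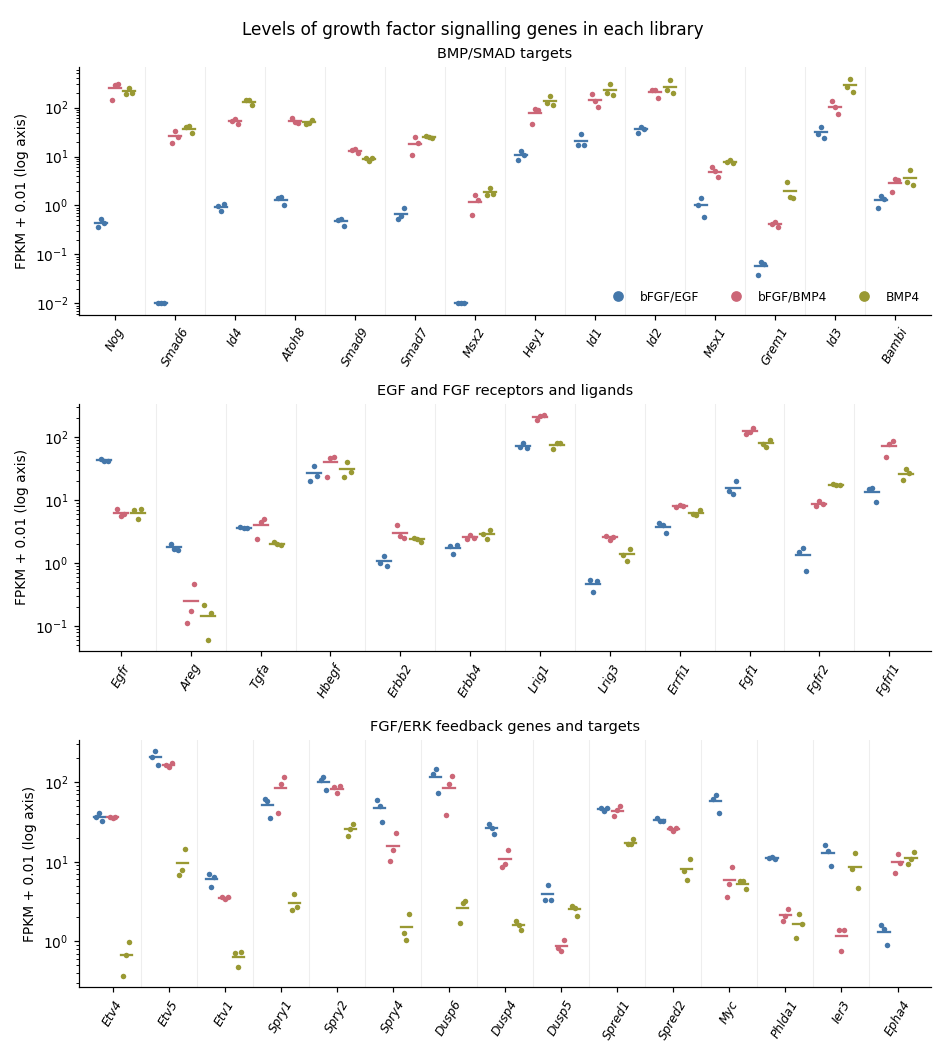
Each point is the FPKM + 0.01 (log axis) of a gene in 1 library, with a bar at the mean of 3 libraries, for bFGF/EGF (blue), bFGF/BMP4 (red) and BMP4 (olive). The BMP/SMAD targets are higher in red than in blue, Egfr falls, and Etv4, Etv5 and Dusp6 have overlapping red and blue points with olive points below them.

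Cyclin D1 and cyclin D2 genes moved in opposite directions. Ccnd1, the cyclin D1 gene that couples mitogens to CDK4 and CDK6 (ENSMUSG00000070348, GRCm39 chromosome 7: 144483668 to 144493662), fell from 473, 568 and 528 FPKM to 6.54, 7.77 and 13.1, a 57.3-fold fall of the mean (log2 -5.88 ± 0.22, adjusted p = 7.1e-08). Ccnd2, the cyclin D2 gene, rose from 152, 132 and 166 FPKM to 422, 495 and 579 (log2 1.72 ± 0.22, adjusted p = 0.00014). The groups did not overlap for either gene. The remaining D-type cyclin gene, Ccnd3, was not called, at 11.6 against 8.84 FPKM (log2 -0.39, adjusted p = 0.041). With BMP4 alone Ccnd2 was at 84.9 ± 26 FPKM, below bFGF/BMP4 (log2 -2.59, adjusted p = 3.5e-05). The kinase gene Cdk4 fell by 2.24 (it shares 646 exon bases with Tspan31 on the other strand), the S phase cyclin gene Ccne1 by 2.12, and E2f2, a transcription activator of S phase genes, by 3.07. The G1/S list held cyclin, kinase and E2F genes, and also Cdc25a, Skp2, Tfdp1, Mycn and Mycl. Of its 18 genes, 12 were lower and 1 higher (median -1.79).

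CDK inhibitors block these kinases, and none of their genes was called. Cdkn1a (p21) was at 131, 156 and 115 against 114, 94.5 and 95.6 FPKM (log2 -0.39, adjusted p = 0.059), and Cdkn1b (p27) at 33, 26.5 and 23.9 against 34.9, 27.2 and 28.2 (log2 0.12, adjusted p = 0.53). Cdkn1c (p57) was at 0.962 ± 0.12 against 0.981 ± 0.30 FPKM (log2 -0.01, adjusted p = 0.99). The p27 and p57 values overlapped, and no rise of these 3 genes was found. Cdkn2b (p15) passed by adjusted p alone, from 9.98 ± 3.7 to 15.6 ± 1.1 FPKM (adjusted p = 0.041), and Cdkn2c (p18) passed by adjusted p alone in the other direction, from 63, 51.4 and 34.7 FPKM to 27.4, 30.8 and 31.9 (log2 -0.69, adjusted p = 0.028). In the retinoblastoma family, Rbl2 (p130), which is known for holding E2F targets off in quiescent cells, rose by 1.27, and Rbl1 (p107) fell by 1.53. The list of 12 genes held both families and the E2F genes E2f4 and E2f5. Of these 12, Rbl2 was higher, Rbl1 lower and 10 were not called (median -0.15). Rbl2 shares 4194 exon bases with Aktip on the other strand. Of 20 p53 targets, 5 were lower and 1 higher (median -0.47), led by the kinase gene Plk2, which fell by 2.96, while the stress gene Sesn1 rose by 1.13.

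Genes of DNA replication and mitosis fell together but stayed above 0. Of 52 replication genes 46 were lower and 0 higher (49 lower by adjusted p alone, median -1.97), and of 50 mitosis genes 45 were lower and 1 higher (median -1.65). Uhrf1, which brings DNA methylation to newly copied DNA, went from 76.3, 67 and 43.1 FPKM to 4.11, 8.98 and 8.84 (log2 -3.11 ± 0.30, adjusted p = 2.4e-05). Rrm2, a subunit of ribonucleotide reductase, fell by 2.96 and the histone chaperone gene Chaf1b by 2.92. Mki67, the proliferation marker, was at 51.2, 19.8 and 31.2 FPKM and then at 7.22, 13.6 and 10.1 (log2 -1.65 ± 0.32, adjusted p = 0.0019), with the lowest bFGF/EGF library above the highest bFGF/BMP4 library. In BMP4-treated NSCs it was at 1.72 ± 0.15, lower again (log2 -2.47, adjusted p = 0.00042). The summed level of the mitosis list was 701 to 1440 FPKM in the bFGF/EGF libraries and 246 to 358 in the bFGF/BMP4 libraries. That of the replication list was 270 FPKM in bFGF/BMP4 replicate 1 and 407 and 414 in the others, and without that replicate 43 replication and 44 mitosis genes were lower. Pttg1, the securin gene, was the member that rose, from 4.01 ± 1.1 to 17.8 ± 0.81 FPKM (log2 2.15), and 220 of its exon bases are shared with Slu7 on the other strand.

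Promoters of the mitosis and replication lists were searched for short elements, which a part of them held. Whether these elements had a part in the falls was not tested. Of the mitosis list, 41 of 50 members matched 44 promoters. TTTGAA, the core of the cell cycle homology region, was in 34 of them (77.3%) and in 17.9% of all promoters, CCAAT, the NF-Y box, in 34 (77.3%) and 37.4%, and both were in 30 (68.2%) and 7.0%. Of the replication list, 43 of 52 members matched 53 promoters, of which 13 (24.5%) held TTTCGCGC or TTTGGCGC, the E2F site, against 0.8% of all promoters. Both strands were searched, so ATTGG and TTCAAA mark matches to CCAAT and TTTGAA. The 250 bases before the start are given from RefSeq GRCm38.p6, with matches in capitals. Cdca8 (minus strand, chr4:124936918-124937167; 232 exon bases shared with Airim) is the mitosis member with the largest fall, from 19.5 to 3.41 FPKM, and holds 3 CCAAT matches. Ube2c (plus strand, chr2:164769679-164769928), which fell from 47.6 to 9.75 FPKM and was added after its sequence was seen, holds both kinds of match. Uhrf1 (plus strand, chr17:56304063-56304312) holds 1 E2F match 177 bases before the start.
Cdca8: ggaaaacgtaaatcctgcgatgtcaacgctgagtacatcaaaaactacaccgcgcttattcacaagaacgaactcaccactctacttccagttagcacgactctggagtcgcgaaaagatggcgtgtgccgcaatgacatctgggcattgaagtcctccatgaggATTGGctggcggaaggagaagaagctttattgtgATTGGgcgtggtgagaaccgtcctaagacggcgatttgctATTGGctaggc
Ube2c: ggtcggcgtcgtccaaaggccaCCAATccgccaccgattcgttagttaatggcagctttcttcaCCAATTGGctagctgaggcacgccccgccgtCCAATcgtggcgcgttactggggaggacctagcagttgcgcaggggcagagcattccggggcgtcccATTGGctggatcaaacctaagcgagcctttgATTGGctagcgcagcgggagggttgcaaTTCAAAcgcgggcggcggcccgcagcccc
Uhrf1: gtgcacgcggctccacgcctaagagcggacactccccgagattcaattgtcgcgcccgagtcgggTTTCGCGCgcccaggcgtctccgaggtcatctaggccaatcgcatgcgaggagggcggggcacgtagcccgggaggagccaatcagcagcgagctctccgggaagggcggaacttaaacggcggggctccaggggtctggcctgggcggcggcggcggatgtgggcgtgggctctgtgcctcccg

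Genes of ribosome production were lower throughout. All 41 ribosome biogenesis genes were lower by adjusted p, 37 of them also by fold (median -1.45). Fibrillarin (Fbl), the methyltransferase that modifies ribosomal RNA, went from 37.6, 45.7 and 35.6 FPKM to 6.24, 7.4 and 8.9 (log2 -2.39 ± 0.16, adjusted p = 2.2e-06). Of 77 cytosolic ribosomal protein genes, 75 were lower and 0 higher (median -1.55). Together they made up 8.14% ± 0.84 of all FPKM with bFGF/EGF and 2.81% ± 0.065 with bFGF/BMP4. Rplp0, a protein of the ribosomal stalk, fell from 873, 1017 and 702 to 259, 270 and 312 FPKM. Ribosomal protein genes have many near-identical pseudogene copies, so the level of a single one is uncertain. Translation elongation factor gene Eef1a1 fell by 1.07 on the log2 scale.

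Amino acid supply genes fell as well. Of 22 serine synthesis and ATF4 target genes, 12 were lower and 1 higher (median -1.35), among them asparagine synthetase (Asns), which went from 67.4 ± 6.8 to 8.93 ± 1.3 FPKM (log2 -2.91 ± 0.19, adjusted p = 1.6e-06), and the pseudokinase gene Trib3, which fell by 3.56. Atf4 itself, chosen after its values were seen, was at 130 against 102 FPKM and was not called. TGATGNAA, the ATF4 element, was in 6 of 26 promoters of this list (23.1%) and in 4.0% of all promoters. Of 25 cholesterol synthesis genes, 6 were lower and 16 were lower by adjusted p alone (median -0.82), with Acat2, an early step, at 82 ± 10 against 21.9 ± 5.1 FPKM (322 exon bases are shared with Tcp1). The SREBP element TCACNCCAC was in 1 of 20 promoters of the list (5.0%) and in 1.2% of all. Of 16 fatty acid synthesis genes, 2 were higher and 3 lower (median -0.08), both near the shares over all genes. Acly, which makes cytosolic acetyl-CoA, fell by 1.40, and the elongase gene Elovl2 rose by 2.43.

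Catabolic lists moved upward. Of 28 fatty acid oxidation genes, 18 were higher and 0 lower, and 25 were higher by adjusted p alone (median 1.12). Cpt1a, the rate-limiting carnitine transferase of mitochondrial import, rose from 6.67, 7.55 and 5.24 FPKM to 19.1, 20.3 and 19.9 (log2 1.61 ± 0.14, adjusted p = 1.3e-05), without overlap. Pdk4, which turns off pyruvate oxidation, rose by 2.95, and the peroxisomal enzyme gene Ehhadh by 2.16. Of 43 lysosome genes, 19 were higher and 1 lower (32 higher by adjusted p alone, median 0.88). Cathepsin B (Ctsb) rose from 26.2, 28.6 and 22.6 FPKM to 138, 137 and 140 (log2 2.42 ± 0.13, adjusted p = 5.2e-07), cathepsin H (Ctsh) rose by 3.79, and cathepsin C (Ctsc) fell by 2.00. Ctsb shares 1184 exon bases with Fdft1 on the other strand.

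Of 26 glycolysis and lactate genes, 7 were higher and 1 lower (median 0.22). Pfkm, a phosphofructokinase, rose from 36.3 ± 4.2 to 256 ± 22 FPKM, the lactate dehydrogenase gene Ldhb rose by 2.20, and hexokinase 2 (Hk2) fell by 1.62. Of 13 mitochondrially encoded protein genes, 6 were higher and 0 lower (median 1.23), and their share of all FPKM was 5.58% ± 1.4 before and 9.83% ± 0.97 after. These genes have near-identical nuclear copies, so single levels are uncertain. Antioxidant genes gave 9 higher and 3 lower of 21, the latter near the share over all genes (median 0.76). The glutathione transferase genes Gstm1 and Gsta4 rose by 3.27 and 4.10, and glutathione reductase (Gsr) fell by 2.32.

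**Figure D3:**
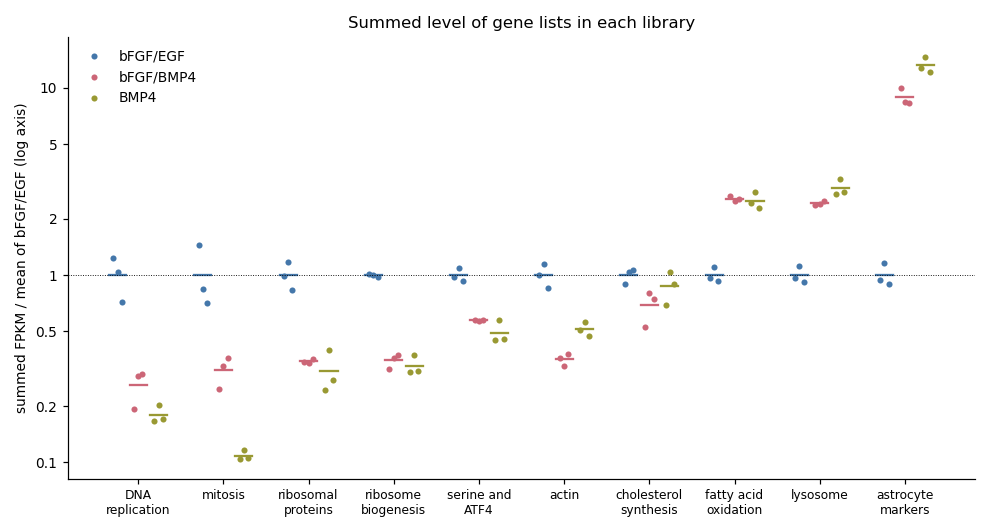
Each point is the summed FPKM of a gene list in 1 library divided by the mean of the bFGF/EGF libraries (log axis), with a bar at the mean of 3 libraries, for bFGF/EGF (blue), bFGF/BMP4 (red) and BMP4 (olive). Red points lie below blue points for DNA replication, mitosis, ribosomal proteins, ribosome biogenesis, the serine and ATF4 list, actin and cholesterol synthesis, and above them for fatty acid oxidation, lysosome and astrocyte markers.

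Stem cell markers diverged, which bears on the label of the cells. Sox2, the NSC transcription factor, was at 202, 170 and 130 FPKM with bFGF/EGF and at 149, 125 and 137 with bFGF/BMP4, and the groups overlapped (log2 -0.27, adjusted p = 0.23). Nestin (Nes, ENSMUSG00000004891, GRCm39 chromosome 3: 87878385 to 87887758), the progenitor intermediate filament, went from 152, 145 and 157 FPKM to 2.96, 3.76 and 3.94, a 42.6-fold fall of the mean (log2 -5.38 ± 0.21, adjusted p = 8.6e-08). Vimentin (Vim) fell by 2.02 and the brain lipid-binding protein gene Fabp7 by 1.27. With BMP4 alone Vim was at 892 ± 129 FPKM, above the 167 ± 18 of bFGF/BMP4 (log2 2.42, adjusted p = 1.3e-05). The Notch effector Hes5 rose from 2.29, 1.86 and 0.166 to 25.3, 26.9 and 28.3 FPKM, with the third bFGF/EGF library far below the other bFGF/EGF libraries, while Hes1 was not called (log2 -1.19, adjusted p = 0.057). Of 23 stem and progenitor genes, 3 were higher, near the share over all genes, and 10 lower (median -0.88). Of 22 quiescence regulators and quiescent NSC markers, 7 were higher and 3 lower, the latter near the share over all genes (median 0.36). The adhesion molecule gene Vcam1 rose by 2.39, the tetraspanin gene Cd9 by 2.63, and Nfix by 1.07, a call lost without bFGF/EGF replicate 3 (0.96). Prom1 fell by 1.59, from 0.66 to 0.151 FPKM, a call lost with a pseudocount of 1.

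Astrocyte markers rose broadly but not as a whole. Of 41, 33 were higher, 3 lower and 5 not called (median 2.94), and their summed level went from 1100 ± 154 to 9830 ± 1010 FPKM. The water channel gene Aqp4 stood at 0.519, 0.68 and 0.381 FPKM before and 192, 239 and 205 after (log2 8.43 ± 0.17, adjusted p = 3.5e-09). Apoe, the main lipid carrier of astrocytes (ENSMUSG00000002985, GRCm39 chromosome 7: 19430034 to 19434947), went from 13.5, 19 and 12.8 FPKM to 1611, 1158 and 1046 (log2 6.38 ± 0.23, adjusted p = 5.4e-08). No library crossed between groups for either gene. S100b rose by 6.31, Fam107a by 7.37 and the matrix protein gene Sparcl1 by 5.10. Slc1a2, a glutamate transporter, rose by 3.79, whereas its partner Slc1a3 passed by adjusted p alone (73.6 ± 8.3 against 130 ± 19 FPKM).

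Gfap, the astrocyte intermediate filament, rose from 0.0837, 0.06 and 0.134 FPKM to 16.8, 19.9 and 21.5 (log2 6.67 ± 0.17, adjusted p = 1.1e-08). In BMP4-treated NSCs it was at 3038, 2478 and 2181 FPKM, so the bFGF/BMP4 level was far below it (log2 7.03, adjusted p = 3.5e-08). Aldh1l1, a folate enzyme used to mark astrocytes, moved the other way, from 132, 162 and 112 FPKM to 24.8, 23.6 and 24.3 (log2 -2.46 ± 0.15, adjusted p = 9.3e-07), without overlap. The metabotropic glutamate receptor gene Grm3 fell by 3.16 and Mfge8 by 1.19. Of 26 genes known from reactive astrocytes, 5 were higher, near the share over all genes, and 9 lower. The median was -0.64, or -0.47 with undetected genes at their bound. S100a10 fell from 165, 242 and 158 FPKM to 6.16, 5.32 and 3.87, whereas the sphingosine kinase gene Sphk1 rose from 1.16 ± 0.46 to 52.3 ± 6.6.

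Markers of other cell types were low or mixed. Of 22 neuron and neuroblast genes, 4 were higher, near the share over all genes, and 8 lower (median -0.76). The neuroblast marker Dcx stayed at 0.108 to 0.233 FPKM in the 6 libraries, Tubb3 was at 20.3 ± 4.0 against 17.0 ± 3.3, and the synaptic vesicle gene Syt1 fell by 4.10. The genes called higher were Nsg2 (mean from 20.6 to 62.0 FPKM), Dlx2 (from 1.98 to 7.53), Dlx1 and Gad2. The Gad2 call was lost with a pseudocount of 1. Of 14 oligodendrocyte lineage genes tested, 3 were higher and 7 lower (median -1.07, or -0.98 with undetected genes at their bound). Sox10 was at 0.154, 0.912 and 0.742 FPKM before and at 0 in all 3 bFGF/BMP4 libraries (at least 2.35-fold lower), and Pdgfra fell by 1.91. Olig1, a progenitor factor, overlapped at 1352 ± 245 and 1254 ± 189 FPKM (adjusted p = 0.78). Of 20 ependymal and cilia genes, 4 were higher and 3 lower, both near the shares over all genes. Their median was 0.27, or 0.06 with undetected genes at their bound. The cilia master regulator Foxj1 was at 7.87, 10.8 and 6.13 against 10.3, 9.44 and 10.4 FPKM (adjusted p = 0.19).

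Of 14 microglia markers, 3 were tested and Aif1, Cx3cr1, Csf1r and C1qa were under the level filter. Of the 3, 1 was higher and 1 lower. The summed microglia level was 0.47 to 1.08 FPKM before and 0.254 to 0.693 after. Of 18 endothelial, mural and fibroblast markers, 5 were tested. Pecam1, an endothelial adhesion molecule gene under the filter, had 1, 4 and 0 fragments before (0.00944, 0.0406 and 0 FPKM) and 23, 20 and 23 after (0.23, 0.209 and 0.251 FPKM), so its groups did not overlap. Cdh5, also under the filter, had 1 fragment in 1 of the 6 libraries, and Cldn5 had 0 in all of them. The summed level was 0.306 to 0.546 FPKM before and 1.71 to 2.51 after, with Kdr and Rgs5 higher. The part of these cells in any result was not tested.

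**Figure D4:**
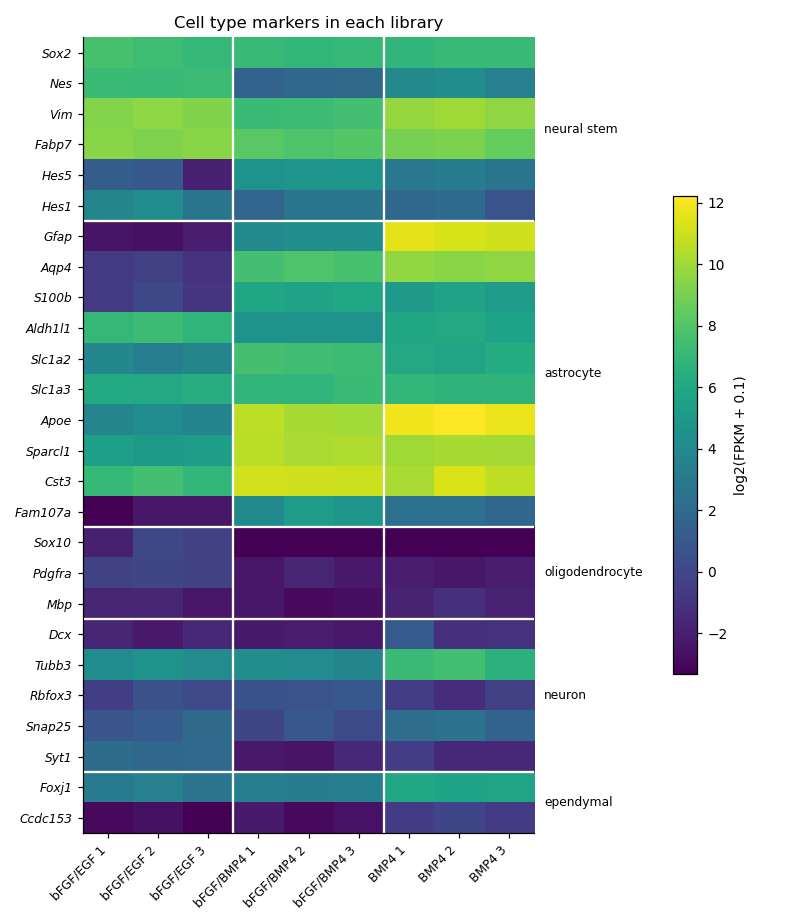
Colour gives log2(FPKM + 0.1) of cell type markers (rows) in each of the 9 libraries (columns), grouped by cell type. In the bFGF/BMP4 columns Nes is darker than in bFGF/EGF and Sox2 of similar colour, Aqp4, S100b and Apoe are bright, and Gfap lies between the bFGF/EGF and BMP4 columns.

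The extracellular matrix moved in both directions. Of 27 neural matrix genes, 12 were higher and 8 lower (median 0.50), and the summed level went from 924 to 4860 FPKM. Neurocan (Ncan, ENSMUSG00000002341, GRCm39 chromosome 8: 70538926 to 70573523), a chondroitin sulfate proteoglycan, supplied most of this, going from 126, 144 and 131 FPKM to 3407, 3247 and 3670 (log2 4.68 ± 0.24, adjusted p = 3.7e-07). With BMP4 alone it was at 307 ± 116 FPKM (log2 -3.55 against bFGF/BMP4, adjusted p = 8.8e-06). Hapln4, on the opposite strand, shares 1255 exon bases with Ncan, so its rise from 2.57 to 18.4 FPKM is uncertain. The glypican gene Gpc5 rose by 5.01 and the testican gene Spock1 by 5.81. Tenascin C (Tnc), a matrix protein of the stem cell niche, fell from 314, 324 and 354 FPKM to 28.6, 35.2 and 33.8 (log2 -3.35 ± 0.13, adjusted p = 7e-08), and Smoc1 fell by 3.63. Of 34 collagen, laminin and basement membrane genes, 11 were higher and 14 lower (median -0.74). Col18a1, which shares 896 exon bases with Slc19a1 on the other strand, fell by 5.76, fibulin 2 (Fbln2) fell by 5.39, while the laminin chain genes Lamb2 and Lama2 rose by 3.92 and 3.61. Among 21 MMP, TIMP and ADAMTS genes, 4 were higher, near the share over all genes, and 8 lower (median -0.79). The protease inhibitor gene Timp4 rose by 4.01 (1142 exon bases are shared with Syn2), and Timp1 fell by 3.58.

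Actin genes fell on balance, and members of the adhesion list were called in both directions. Of 38 actin, SRF and YAP target genes, 20 were lower and 5 higher, the latter near the share over all genes (median -1.14). Actb, the main cytoplasmic actin gene, fell from 969, 1156 and 813 FPKM to 285, 228 and 283 (log2 -1.88 ± 0.18, adjusted p = 1.8e-05), and the actin-binding protein gene Tagln2 from 172, 196 and 151 to 1.82, 2.5 and 3.3 (log2 -6.06 ± 0.24, adjusted p = 7.7e-08). The receptor kinase gene Axl rose by 3.95. The CArG box was in 7 of 37 promoters of the list (18.9%) and in 1.6% of all promoters. Of 30 integrin and focal adhesion genes, 10 were higher and 5 lower, the latter near the share over all genes (median 0.46). Among integrin genes, Itga4 fell from 17.1 ± 4.1 to 0.296 ± 0.022 FPKM and Itga7 by 3.38 on the log2 scale, while Itgav, a partner in vitronectin receptors, rose from 14.8 ± 1.7 to 53.8 ± 12 and Itgb3 by 3.29. Among 46 synaptic receptor and adhesion genes, 12 were higher and 12 lower (median -0.02). The neuronal pentraxin gene Nptx2 had the largest fall, at -6.30, and the GABA receptor subunit gene Gabrb1, which shares 396 exon bases with Commd8 on the other strand, the largest rise, at 3.73. Of 17 neurotransmitter and amino acid transporters, 3 were higher, near the share over all genes, and 6 lower (median -0.57). The creatine transporter gene Slc6a8 rose from 13.1 ± 1.4 to 157 ± 5.5 FPKM.

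In other signalling lists members were called in both directions, in shares to be read against the 16.5% higher and 14.1% lower of all genes, to which those of the IGF and forebrain lists and the higher share of the Hedgehog list were near. Of 19 Notch pathway genes, 5 were higher and 5 lower (median -0.03): the receptor gene Notch3 rose by 2.38 and the noncanonical ligand gene Dner by 2.32, while the ligand gene Dll3 fell by 3.00. Of 11 Hedgehog pathway genes, 2 were higher and 3 lower (median 0.45). Shh, the ligand, was at 1.74, 2.31 and 2.5 FPKM before and was at least 31.8-fold lower after, whereas the repressor gene Gli3 rose by 2.97 and the co-receptor gene Boc by 3.07. Of 27 Wnt targets and modulators, 6 were higher and 9 lower (median 0.30). The secreted inhibitor gene Wif1 was at least 101-fold higher, at 7.54, 7.04 and 7.67 FPKM, and the ligand gene Wnt7a fell by 2.77. In the IGF system, 3 of 13 were higher and 2 lower (median 0.16). Igfbp2, which binds IGFs, rose from 742 ± 143 to 1829 ± 265 FPKM (log2 1.31, adjusted p = 0.012, a call lost with quantile normalization) and was at 104 ± 48 with BMP4 alone. Of 16 forebrain regional factors, 3 were higher and 3 lower (median 0.57), with Gsx1 falling by 3.25 and Lhx2 rising by 1.30.

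Retinoic acid genes are given because the supplement may have differed in vitamin A. Of 13 tested, 5 were higher and 3 lower (median 0.43). The enzyme gene Aldh1a1 rose from 0.334, 0.397 and 0.413 FPKM to 42.7, 30.1 and 30.5 (log2 6.15 ± 0.23, adjusted p = 6.9e-08), and Aldh1a3 fell from 4.91 ± 0.85 to 0.0569 ± 0.051 FPKM. The retinaldehyde reductase gene Dhrs3 was at least 73.7-fold higher, and the degrading enzyme gene Cyp26b1 at least 36.8-fold. Rarb, a receptor gene that retinoic acid induces, was not called, at 0.197 ± 0.068 against 0.316 ± 0.12 FPKM (adjusted p = 0.31), and 2612 of its exon bases are shared with Top2b. Whether vitamin A had a part in any result was not tested. Of 22 interferon response and MHC class I genes, 7 were higher and 0 lower (median 0.63, or 0.52 with undetected genes at their bound), led by Ifit3, which rose by 2.85.

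Outside the lists, the largest changes were in genes of varied function. Cidea, a lipid droplet protein of brown fat, was listed at 0.106, 0 and 0.102 FPKM with bFGF/EGF and at 144, 98.2 and 85.1 with bFGF/BMP4, at least 680-fold higher. The connexin gene Gja3 was not detected before and was at 35.7, 82.3 and 72.5 FPKM after (at least 1053-fold), and the matrix gene Fmod was at least 502-fold higher. Ngfr, the p75 neurotrophin receptor gene, rose from 0.444, 0.367 and 0.378 FPKM to 54.3, 96.3 and 112 (log2 7.40 ± 0.27, adjusted p = 5.5e-08), and was at 2.16 ± 0.51 with BMP4 alone. The secreted factor gene Serpinf1 rose by 8.92, Stum by 8.57, Inpp5j, which shares 584 exon bases with Pla2g3, by 8.35, Ccdc3 by 8.20 and the granin gene Chgb by 7.47. Trp53i11 had the largest fall, from 213, 213 and 200 FPKM to 2.28, 2.14 and 1.69 (log2 -6.62 ± 0.20, adjusted p = 2.4e-08). It was followed by Cpne7, which fell by 6.45, Elfn2 by 6.39, the peptide hormone gene Adm by 6.14 and Golga7b by 5.93. The thymosin gene Tmsb10 fell from 386 ± 112 to 7.95 ± 1.7 FPKM and the galectin gene Lgals1 from 628 ± 184 to 16.7 ± 3.7.

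Among the most abundant transcripts, Ckb, the brain creatine kinase gene, was at 3257 ± 700 FPKM before and 5350 ± 107 after and was not called (log2 0.74, adjusted p = 0.067). Cst3, a cysteine protease inhibitor gene, rose from 148 ± 36 to 2150 ± 102 FPKM (log2 3.88), and with Ncan it was among the 10 most abundant genes of bFGF/BMP4-treated NSCs, with ribosomal RNA and mitochondrially encoded genes left out. Pea15a, whose product holds ERK in the cytoplasm, rose by 2.02. The alpha-tubulin gene Tuba1a fell from 1023 ± 151 to 412 ± 97 FPKM, and the ribosomal protein gene Rplp1 from 1766 ± 348 to 655 ± 20.

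**Figure D5:**
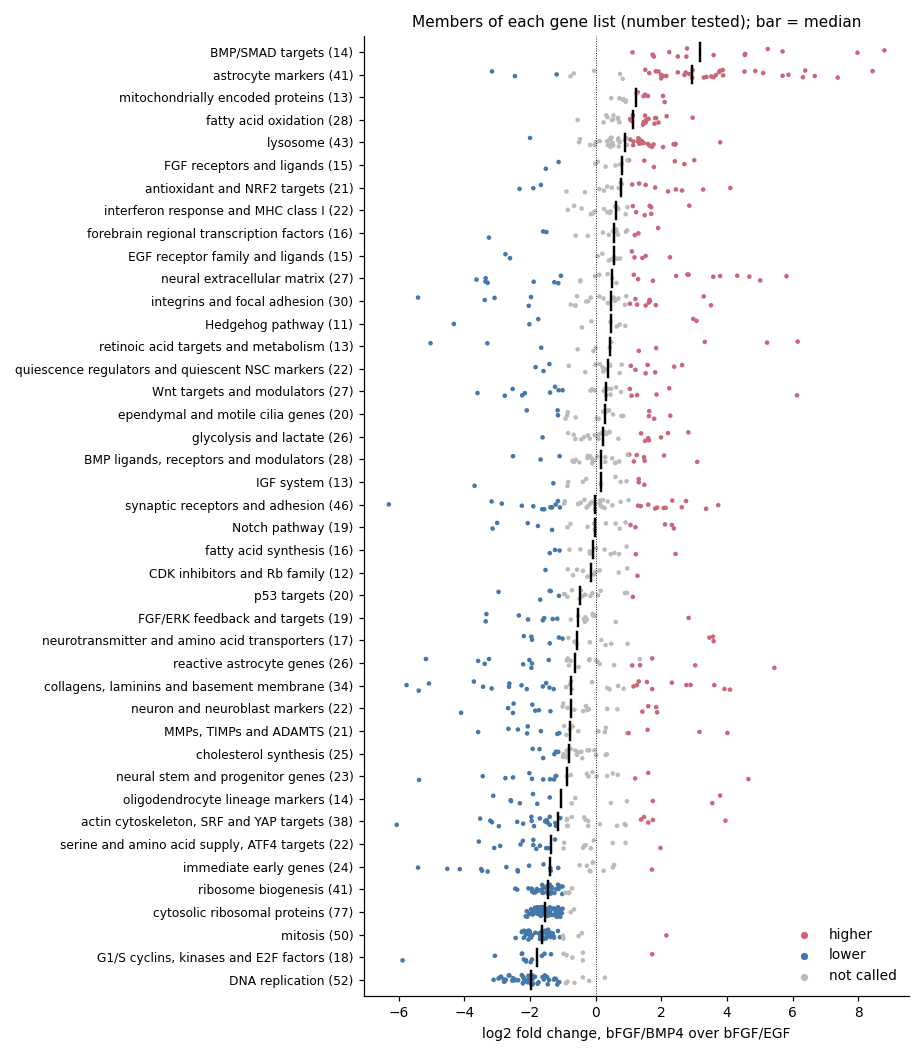
Each point is a member of a gene list (rows, with the number tested), with the log2 fold change of bFGF/BMP4 over bFGF/EGF on the x axis; red is higher, blue lower and grey not called, and black bars are list medians. DNA replication (median -1.97) and G1/S genes (-1.79) lie at the low end and astrocyte markers (2.94) and BMP/SMAD targets (3.18) at the high end, while several lists have members on both sides.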

How the data were processed

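RNA was measured by paired-end RNA-seq in 9 libraries. The authors deposited FPKM values. The submitters' processing notes name fastp 0.19.7, HISAT2 2.0.5, featureCounts 1.5.0-p3 and mm39. The annotation release and strand setting are not given in the sources used here, so overlapping genes on opposite strands cannot be separated. Of 55704 identifiers, 54749 were found in GENCODE vM39 (GRCm39). Fragment numbers were rebuilt from the FPKM steps (largest distance from a whole number 0.02), and a group with at most 3 fragments in each library was treated as undetected, which gives lower bounds for counting error only.

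Genes with a mean of at least 0.1 FPKM were tested with limma 3.58.1 (R 4.3.3, trend) on log2(FPKM + 0.1). All 9 libraries in 3 groups entered the fit, with Benjamini-Hochberg adjustment. This scale understates changes of low genes. A gene was called at an adjusted p of at most 0.05 and 2-fold. Python 3.11.15, pandas 2.3.3, numpy 2.4.6 and matplotlib 3.10.9 made tables and figures. The code was tested on simulated data.

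Named genes were the 12 largest rises and 12 largest falls at a mean of at least 5 FPKM without overlap, the 3 largest rises and falls of each of 45 lists, the 10 most abundant genes of each group, the 5 largest gains and losses of FPKM, all members of 7 signalling, cycle, sex-linked and retinoic lists, and fixed markers. Some of these genes are not reported here. Members, lists and rules were chosen with earlier results of these data known. Alternatives were pseudocount 1, other filters and scalings, a TPM scale, limma-voom on fragments, the 6 libraries alone, a replicate block and each library left out.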

Additional observations from a re-analysis of the deposited data

How the results depend on the processing

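The counts moved by more than 1.5 times with a pseudocount of 1 (1723 higher, 1821 lower) and, by construction, without the fold threshold (5058 and 4761). Under the other settings they were 2259 to 3501 higher and 2128 to 3079 lower, and with a library left out 3091 to 3325 and 2649 to 2888. Replicate numbers did not pair the libraries (correlations of same-numbered deviations -0.084, -0.055 and -0.075), and a replicate block gave 3284 and 2843. Of 271 named genes called, 54 lost the call in at least 1 alternative, 15 of them with a library left out, and 0 changed sign.

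List medians (log2) that moved by more than the spread between replicates are grouped by setting, and the cause was not tested. With a pseudocount of 1, which shrinks low genes, they were 2.69 for BMP/SMAD targets, 0.36 for the EGF family, -1.08 for ATF4 targets, 0.77 for lysosome, 2.68 for astrocyte, -0.29 for oligodendrocyte, 0.05 for ependymal, 0.08 for endothelial, mural and fibroblast, -0.13 for reactive astrocyte, 0.17 for interferon, 0.29 for integrin, -0.28 for collagen, -0.50 for MMP, -0.20 for transporter and 0.06 for retinoic genes. With a mean of at least 1 FPKM, which tests fewer genes, they were 3.59 (BMP/SMAD), 0.74 (EGF), -1.24 (ATF4), 0.95 (oligodendrocyte, reversed), 0.84 (ependymal), 2.34 (endothelial, mural and fibroblast), -1.43 (reactive), -0.11 (collagens), -0.18 (transporters), 0.46 (Notch) and 1.31 (retinoic). Quantile normalization gave 0.04 (ependymal), -0.02 (endothelial, mural and fibroblast, reversed) and 0.13 (retinoic). A TPM scale gave 3.72 (BMP/SMAD) and 1.17 (endothelial, mural and fibroblast). Voom gave 3.81 (BMP/SMAD), 0.76 (EGF), -1.64 (oligodendrocyte), 0.52 (ependymal) and 1.87 (endothelial, mural and fibroblast). With a library left out, medians ranged from 3.05 to 3.52 for BMP/SMAD, 2.72 to 3.09 for astrocyte, 0.13 to 0.30 for ependymal, -0.09 to 0.37 for IGF (-0.09 without bFGF/EGF replicate 3 and -0.08 without bFGF/BMP4 replicate 1), 0.0 to 0.59 for retinoic and -0.30 to 0.01 for CDK inhibitor genes, the 0.01 without bFGF/EGF replicate 1.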

Other observations

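Of the 330 named genes, 82 had an exon that overlaps a tested gene on the other strand. Of 5 sex-linked genes, 1 was higher and 0 lower (median 0.42): Ddx3y was higher (3.09 ± 1.3 against 6.70 ± 1.8 FPKM, log2 1.13, adjusted p = 0.0089), a call lost without bFGF/EGF replicate 1, bFGF/EGF replicate 2 or bFGF/BMP4 replicate 2 (log2 values of 0.93 to 1.45 over all libraries left out in turn), while Xist was at 40.3 ± 11 against 33.6 ± 2.9 FPKM (adjusted p = 0.61). The mitochondrial gene mt-Co3 was at 69.1, 302 and 51.5 FPKM in the bFGF/BMP4 libraries, so its mean of 141 rests on replicate 2, and its call was lost without bFGF/EGF replicate 2 (log2 values of 1.32 to 2.59 over all libraries left out in turn).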
